A study of Macaca mulatta with 52 samples.

Results

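Expanded blastocysts of the rhesus monkey (Macaca mulatta) were compared with morulas in libraries made with the SPIA kit, which copies cDNA many times over by isothermal linear amplification. Every count column whose name matched a title of an expanded blastocyst or a morula in this kit was taken, which gave 14 blastocysts and 11 morulas, 25 of the 49 libraries analysed. The series followed preimplantation development by RNA sequencing, and the libraries not compared here were 8-cell embryos, delayed blastocysts and a second kit, SoLo. Per the labels' protocols, both groups came from oocytes matured in females given recombinant human FSH and hCG, which were then inseminated in vitro and freed of cumulus cells by pipetting. The embryos were cultured in a chemically defined medium, later with calf serum, with or without relaxin, and the labels do not say which embryo received relaxin. The labels do not say whether a sample held a single embryo, nor whether samples shared parents, so p-values measure the spread between these samples.

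A morula is a compacted ball of cells. At blastocyst formation its outer cells become trophectoderm, an epithelium that seals the embryo, pumps ions and water into a cavity and later forms the placenta. The inner cells separate into epiblast and primitive endoderm, and the endoderm lays down a basement membrane and takes up nutrients through endocytic receptors. A whole-embryo library mixes these lineages, so fewer cells of a type and less RNA per cell cannot be told apart.

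Total counts ranged from 0.601 to 11.7 M (mega) counts in blastocysts and from 5.06 to 21 M in morulas, and means were 6.66 ± 2.57 M and 10.5 ± 6.0 M (SD, n = 14 and n = 11; permutation test, two-sided, adjusted p = 0.172 over 5 library measures). A count of 0 allows up to 6.86 counts per 1 M counts (CPM) in the shallow blastocyst 111715_05, between 0.149 and 0.738 CPM in the other blastocysts and between 0.121 and 0.749 CPM in morulas, for counting error only. The libraries stood apart from their label in 2 cases. Over 11525 genes, which share depth and composition within a library, blastocyst 111715_05 had a Spearman coefficient of 0.765 to the mean of the other blastocysts and 0.807 to the mean of the morulas. Morula 022916_01 had 0.873 to the mean of the blastocysts and 0.818 to the mean of the other morulas. Each of the other 23 libraries was closer to its own group. The results below are given with and without these 2 libraries where they differ. In addition, 3 morulas (020816_04, 022916_02 and 022916_03) exceeded 12 M counts, a depth no blastocyst reached. The 20 identifiers with most counts held 20.6% to 29.1% of their counts, against 43.3% to 63.6% in the other morulas. In blastocysts this share was 26.0% to 71.5%, and the lowest was 111215_02 with 11.7 M counts.

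**Figure D1:**
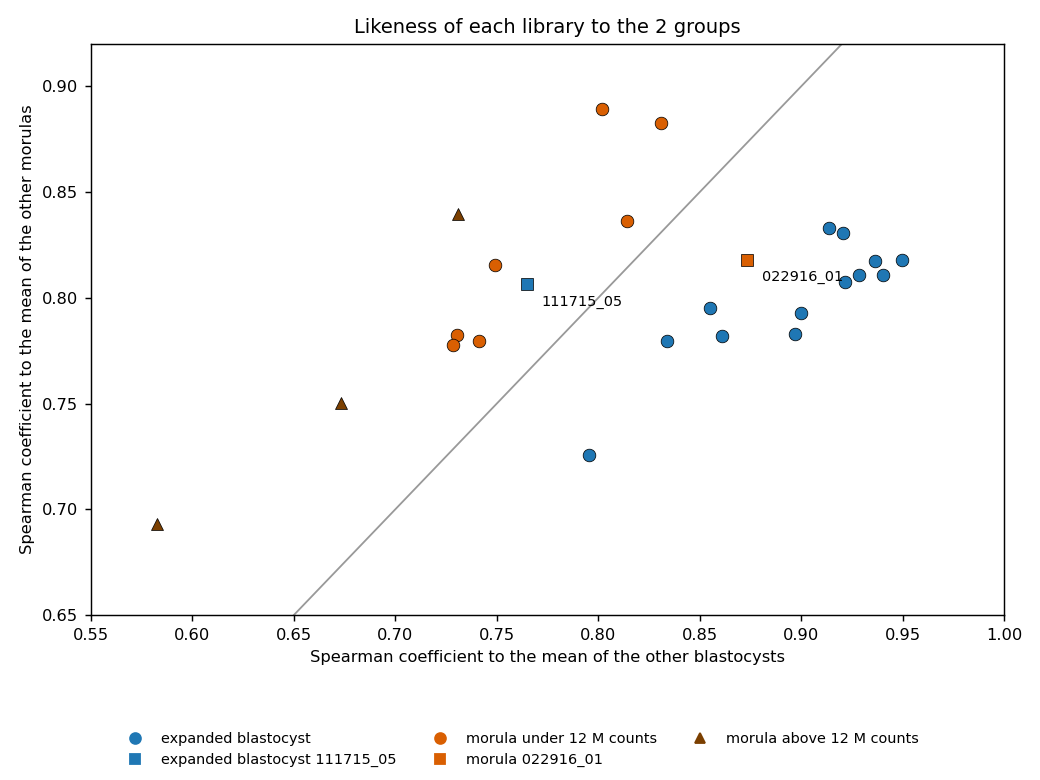
Spearman coefficient of each library over 11525 genes to the mean of the other blastocysts (x axis) and to the mean of the other morulas (y axis). Each point is a library, the line marks equal values, and 111715_05 and 022916_01 lie on the other group's side of it.

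With all 25 libraries, edgeR's quasi-likelihood test called 733 of 15578 genes higher in blastocysts (4.71%) and 1550 lower (9.95%), at a Benjamini-Hochberg adjusted p under 0.05. Without 111715_05 and 022916_01, 904 of 15525 genes were called higher (5.82%) and 1752 lower (11.3%), and 2175 of the 2177 genes called both times had the same sign. The median log2 fold change over all genes was -0.29, and -0.14 with DESeq2 size factors, so a gene near zero stood above the middle of the genes. The balance of directions depended on the method: limma voom called 1449 higher (9.3%) and 383 lower (2.46%), with a median of 0.40, and DESeq2 called 864 higher and 1036 lower. With the 3 deep morulas left out, edgeR called 285 of 15137 higher (1.88%) and 448 lower (2.96%). Genes called with 1 sign in 6 fits (edgeR on all libraries, without the 2 libraries and without the deep morulas, DESeq2, and voom with and without the title code as a random block) numbered 202 higher (1.3%) and 166 lower (1.07%). These fits share libraries and are no independent evidence. The first part of each title, here called the title code, is never shared between the groups, with 4 codes in each, so code and stage cannot be told apart.

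Few genes separated the groups completely. Over all 25 libraries 4 called genes were higher in every blastocyst than in any morula and 3 were lower. Without the 2 libraries that stood apart, 89 of the 15578 genes were higher in all 13 blastocysts than in any of the 10 morulas (0.571%), and 19 were lower in all of them (0.122%). The 4 higher genes were SCCPDH, OSBPL7, ABAT and TMEM106C. ABAT, which encodes the mitochondrial enzyme that breaks down GABA, had a lowest, median and highest level of 2.29, 6.95 and 36.3 CPM in blastocysts, against 0, 0.604 and 1.81 CPM in morulas. Its log2 fold change was 3.75 ± 0.84 (SE; edgeR adjusted p = 0.00291). The lowest value, 2.29 CPM, is a single count in 111715_05, as it is for SCCPDH, so the separation of these genes over all 25 libraries rests on 1 count in that library. Of the 3 lower genes, MAX and RPS19 have a symbol and are described below.

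ENPEP, GATA4 and TET2 rose in blastocysts and MAX fell. ENPEP encodes aminopeptidase A, a cell-surface protease that marks trophoblast. Its lowest, median and highest levels were 2.03, 115 and 305 CPM in blastocysts, against 0.0402, 0.352 and 26.8 CPM in morulas. The highest morula was 022916_01, and the next reached 1.48 CPM, so 12 of the 14 blastocysts exceeded every morula. The log2 fold change of ENPEP was 5.52 ± 1.19 (SE; edgeR adjusted p = 0.00282), and 8.27 without the 2 libraries.

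GATA4, a transcription factor of the primitive endoderm, had 0, 21.1 and 48.4 CPM in blastocysts, against 0, 0.195 and 10.4 CPM in morulas. Its groups overlapped, since 3 blastocysts were at 0, and the highest morula was again 022916_01. Its log2 fold change was 3.89 ± 1.19 (SE; edgeR adjusted p = 0.0224), and without the deep morulas it was 3.70 with an adjusted p of 0.0914.

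TET2, an enzyme that oxidises 5-methylcytosine and so starts DNA demethylation, had 240, 1257 and 2163 CPM in blastocysts, against 5.06, 96.7 and 823 CPM in morulas. The lowest blastocyst was 111715_05 and the highest morula 022916_01, and without them the groups did not overlap, since the lowest blastocyst had 877 CPM and the highest morula 436 CPM. The log2 fold change of TET2 was 2.61 ± 0.54 (SE; edgeR adjusted p = 0.00192).

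MAX, the DNA-binding partner of MYC and of the MXD repressors, had 228, 357 and 676 CPM in blastocysts, against 829, 1887 and 5011 CPM in morulas. Every blastocyst was below every morula, 022916_01 included, which was the lowest morula. Its log2 fold change was -2.64 ± 0.25 (SE; edgeR adjusted p = 3.90e-10), and -2.25 without the deep morulas. Of the 11 tested members of the MYC and MAX network, MXD1 also fell, by 3.64 ± 0.71 on the log2 scale (edgeR adjusted p = 0.00124), but without the deep morulas it had a log2 fold change of -0.93 (adjusted p = 0.289). MYC itself did not pass, with medians of 45.8 CPM in blastocysts and 43.9 CPM in morulas.

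**Figure D2:**
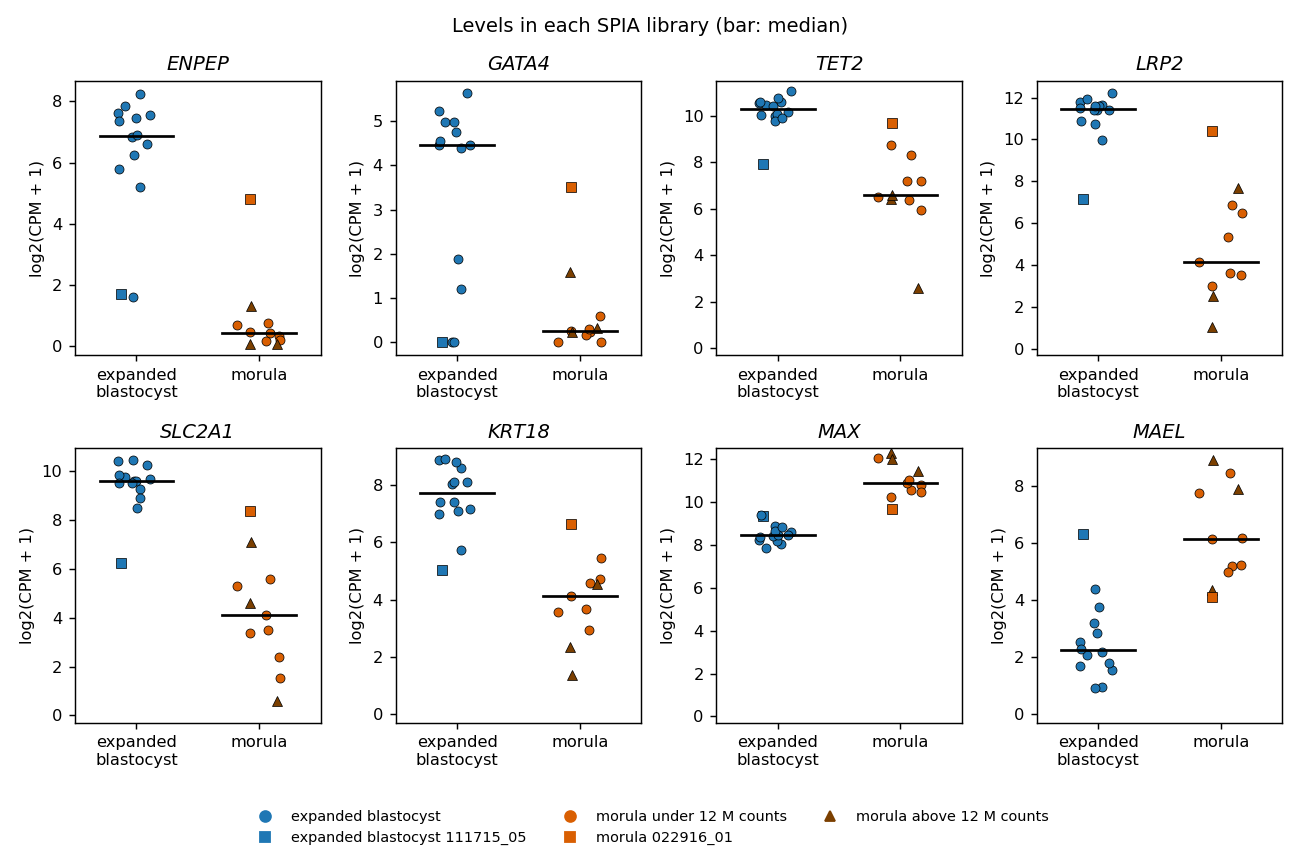
Levels of 8 genes in each SPIA library, as log2(CPM + 1), with blastocysts left and morulas right in each panel; points are libraries and bars are medians. Blastocyst 111715_05 (blue square) and morula 022916_01 (orange square) lie towards the other group for most of the higher genes, while MAX keeps every blastocyst below every morula.

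Several trophectoderm products rose, keratins and placental enzymes among them. Of 29 tested keratins, surface and secreted products of trophectoderm, 10 rose and 5 fell, with a median log2 fold change of 1.12, and 7 of the higher and 1 of the lower genes were called in all 6 fits. The shares that rose and fell both lay above those over all genes, 4.71% and 9.95%. The intermediate-filament keratins KRT18, KRT19 and KRT7 rose. Of 10 tested keratins of any kind, 4 rose and 1 fell, with a median log2 fold change of 0.37. In all 6 fits 2 of these keratins rose and 0 fell. KRT18 had 32.0, 217 and 476 CPM in blastocysts, against 1.60, 16.3 and 98.6 CPM in morulas, a log2 fold change of 3.35 ± 0.67 (SE; edgeR adjusted p = 0.00143). KRT19 had 0, 26.9 and 122 CPM in blastocysts, against 0, 0.176 and 7.35 CPM in morulas, a log2 fold change of 5.14 ± 1.19 (SE; edgeR adjusted p = 0.00389). For both, blastocysts above every morula were the majority, with 12 and 10 of 14.

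S100P, a calcium-binding protein, had 36.6, 107 and 204 CPM in blastocysts, against 0.0610, 1.88 and 52.3 CPM in morulas (log2 fold change 3.48 ± 0.70, edgeR adjusted p = 0.00125). ABCG2, an efflux pump of the placental barrier, had 0.226, 6.38 and 79.6 CPM in blastocysts, against 0, 0.0610 and 0.865 CPM in morulas. Its log2 fold change was 6.52 ± 1.12 (SE; edgeR adjusted p = 0.000295), and 13 of 14 blastocysts exceeded every morula. Enzymes of steroid metabolism belong to the same list: HSD17B1, which reduces estrone to estradiol, and STS, which removes sulphate from steroids. HSD17B1 had a median of 3.21 CPM in blastocysts and 0 CPM in morulas, and STS had medians of 90.5 and 0.881 CPM in blastocysts and morulas. STS had a log2 fold change of 4.04 ± 1.12 (SE; edgeR adjusted p = 0.0147), and 3.61 with an adjusted p of 0.0752 without the deep morulas. SLC7A2, a carrier of cationic amino acids that also counts among the transporters below, fell in all 6 fits, with 0.451, 24.3 and 56.7 CPM in blastocysts, against 17.1, 138 and 312 CPM in morulas.

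Of 23 tested transcription factors of trophectoderm, 3 rose (ELF3, GRHL2 and VGLL1) and CREB3L1 fell, none in all 6 fits. The share that rose was above the 4.71% over all genes, and the share that fell was below the 9.95% over all genes. The median log2 fold change was 0.91, against -0.29 over all genes. Without the 2 libraries 6 rose, without the deep morulas 1 rose, and in voom 8 rose. GATA2 had 9.14, 244 and 352 CPM in blastocysts, against 0, 0.908 and 263 CPM in morulas. It did not pass in the fit on all libraries (log2 fold change 2.61 ± 1.05, edgeR adjusted p = 0.0896), but passed without the 2 libraries (adjusted p = 0.0470) and without the deep morulas (adjusted p = 0.0446). The morulas above 100 CPM of GATA2 were 022916_02 and 022916_01, with 263 and 115 CPM. GATA3 had medians of 34.2 CPM in blastocysts and 1.70 CPM in morulas, and its highest library was morula 022916_02 with 127 CPM (edgeR adjusted p = 0.659). TFAP2C, which acts early in this lineage, had medians of 68.6 CPM in blastocysts and 77.4 CPM in morulas (edgeR log2 fold change -0.16 ± 0.37, adjusted p = 0.831). CDX2, KRT8, TEAD4, SOX2 and SOX17 had no matched identifier and were not analysed here.

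Of 21 tested primitive endoderm genes 8 rose and 2 fell, and their median log2 fold change was 1.30. The share that rose lay above the 4.71% over all genes, and the share that fell was near the 9.95% over all genes. In all 6 fits 3 rose and none fell, beside 1.3% and 1.07% of all genes, and without the deep morulas 3 rose, beside 1.88%. The summed level of the list was 889, 4389 and 6436 CPM in blastocysts, against 574, 826 and 3018 CPM in morulas. LRP2, the large endocytic receptor megalin, had 144, 2837 and 4797 CPM in blastocysts, against 1.04, 17.0 and 1337 CPM in morulas. The morula at 1337 CPM was 022916_01 and the next had 204 CPM, while the lowest blastocyst other than 111715_05 had 1011 CPM. Its log2 fold change was 4.00 ± 0.88 (SE; edgeR adjusted p = 0.00356), and 5.84 without the 2 libraries. LRPAP1, on no list, is the chaperone that escorts megalin and related receptors to the surface, and it rose by 2.99 ± 0.58 on the log2 scale (edgeR adjusted p = 0.00101), with medians of 176 CPM in blastocysts and 20.4 CPM in morulas.

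The secreted WNT enhancer RSPO3 was at 0 in 10 of 11 morulas and had a single count in the other, against a median of 5.26 CPM and a highest value of 20.4 CPM in blastocysts, 6 of which were at 0. The pooled ratio of blastocysts over morulas was 790, with an exact 95% interval of 141 to 31255 that covers counting error only. APOA1, the main protein of high-density lipoprotein, rose by 3.23 ± 1.12 on the log2 scale (edgeR adjusted p = 0.0445), with medians of 28.3 CPM in blastocysts and 0 CPM in morulas. The growth factor gene IGF1 rose by 5.18 ± 1.46 (edgeR adjusted p = 0.0137), with medians of 12.1 CPM in blastocysts and 0 CPM in morulas, and 022916_01 held the highest morula value of each gene, 49.3 and 3.24 CPM. Calls of APOA1 and IGF1 were lost without the deep morulas, with log2 fold changes of 2.77 and 4.67 (edgeR adjusted p = 0.149 and 0.0671).

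The members that fell were OTX2 and FRZB, a homeobox factor and a secreted WNT antagonist. OTX2 had 8.53, 22.0 and 156 CPM in blastocysts, against 12, 85.1 and 1958 CPM in morulas, and FRZB had medians of 2.23 CPM in blastocysts and 5.32 CPM in morulas. Both rested on the deep morulas, without which their log2 fold changes were -0.68 and -0.62 (edgeR adjusted p = 0.561 and 0.594). PDGFRA, a receptor that marks primitive endoderm in mouse, did not pass, with medians of 326 CPM in blastocysts and 236 CPM in morulas.

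Some genes differed widely among the blastocysts themselves. Among the 13 blastocysts other than 111715_05, whose depth cannot place a gene under 5 CPM, GATA4, IGF1 and the fibrillar collagen COL1A2 were each under 5 CPM in the same 4 (112415_03, 112415_04, 112515_03 and 112515_04) and above it in the other 9. The genes and the limit were chosen after the values were seen. GATA4 reached at most 2.68 CPM in the 4 and lay between 20.1 and 48.4 CPM in the 9, and IGF1 reached at most 0.482 CPM in the 4 and lay between 7.04 and 25.9 CPM in the 9. RSPO3 was at 0 in the 4 and also in 112415_02. The trophoblast gene ENPEP had medians of 74.3 CPM in the 4 and 177 CPM in the 9, with overlap. S100P, of the trophectoderm list, had medians of 99.7 and 132 CPM, also with overlap. Whether the split concerned endoderm genes alone was not tested. LRP2 had medians of 2892 and 2931 CPM. The summed level of the endoderm list, of which LRP2 makes up the larger part, had medians of 4211 CPM in the 4 and 4629 CPM in the 9. NID2, of the same list, had medians of 255 and 644 CPM, with overlap. Both blastocysts of code 112515 and 2 of 4 of code 112415 were among the 4, and the part of the title code in this was not tested.

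Basement membrane and matrix genes rose in 10 of 26 tested members and 1 fell, beside 4.71% and 9.95% of all genes. Their median log2 fold change was 1.37, and 4 higher members were called in all 6 fits, beside 1.3% of all genes. Their summed level was 750, 3066 and 4061 CPM in blastocysts, against 564, 1024 and 1696 CPM in morulas, and 111715_05 alone among the blastocysts lay below 1000 CPM. The laminin gamma chain LAMC1 had 126, 706 and 952 CPM in blastocysts, against 11.2, 158 and 493 CPM in morulas (log2 fold change 2.04 ± 0.43, edgeR adjusted p = 0.00176). The laminin beta chain LAMB1 had 61.7, 505 and 764 CPM in blastocysts, against 5.27, 139 and 305 CPM in morulas (log2 fold change 1.63 ± 0.41, edgeR adjusted p = 0.00661). For LAMB1, 13 of 14 blastocysts exceeded every morula, the exception being 111715_05.

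NID2, a nidogen that links laminin to collagen, had 20.6, 476 and 910 CPM in blastocysts, against 1.56, 5.74 and 71.1 CPM in morulas, a log2 fold change of 4.69 ± 0.92 (SE; edgeR adjusted p = 0.00157). LAMA3, NID1, COL4A1, COL4A2, FN1, the integrin ITGA5 and the collagen chaperone SERPINH1 also rose, and NID2 and FN1 count among the endoderm genes as well. The network-forming collagens COL4A1 and COL4A2 had medians of 41.3 and 12.6 CPM in blastocysts, against 0.201 and 0.366 CPM in morulas. Their log2 fold changes were 3.96 and 3.41, and 3.51 and 3.0 without the deep morulas, where the calls were lost (edgeR adjusted p = 0.0602 and 0.0827). Without the 2 libraries the adjusted p-values were 2.60e-05 and 0.000456. COL4A6 fell on values that reached only 25.8 CPM, in the deep morula 022916_02, and the call was lost without the 2 libraries (edgeR adjusted p = 0.0512). COL1A2, listed here among cumulus and granulosa markers, had 1480 counts over the blastocysts and 3 over the morulas, a ratio of 606 with an exact 95% interval of 207 to 2943 for counting error only.

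**Figure D3:**
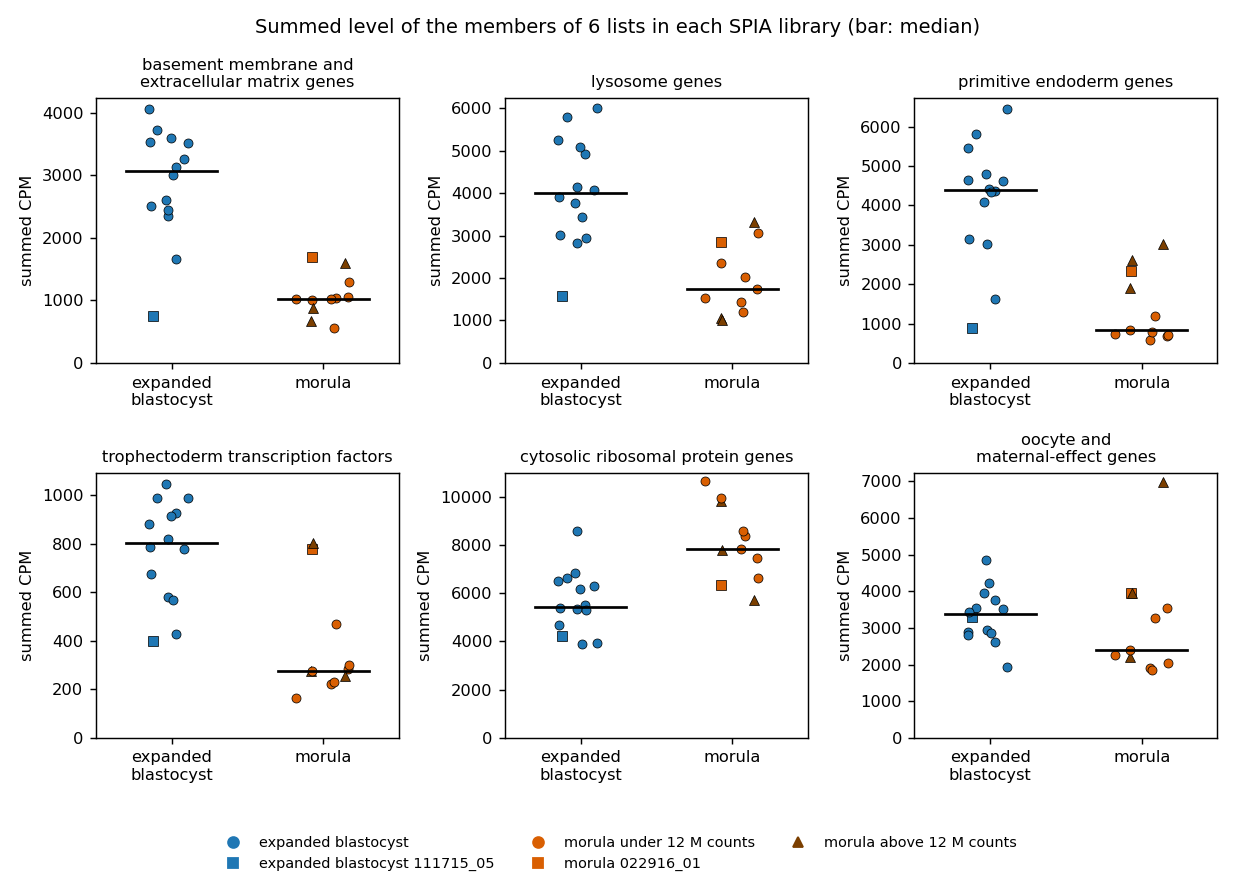
Summed CPM of the members of 6 gene lists in each SPIA library, with blastocysts left and morulas right; points are libraries and bars are medians. Matrix, lysosome, endoderm and trophectoderm factor sums are higher in most blastocysts, ribosomal protein sums are lower, and 1 deep morula at 6979 CPM stands above every other library for oocyte genes.

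Lysosome genes rose in 6 of 29 tested members and 1 fell, beside 4.71% and 9.95% of all genes. Their median log2 fold change was 1.02, and 4 of the 6 were called in all 6 fits, beside 1.3% of all genes. The summed level was 1586, 3993 and 5992 CPM in blastocysts, against 1016, 1748 and 3315 CPM in morulas. The cysteine protease cathepsin B, CTSB, had 165, 814 and 1312 CPM in blastocysts, against 2.86, 97.7 and 356 CPM in morulas (log2 fold change 2.70 ± 0.49, edgeR adjusted p = 0.000584). PSAP, the precursor of the saposins that help degrade sphingolipids, had 154, 601 and 1044 CPM in blastocysts, against 28.7, 127 and 265 CPM in morulas (log2 fold change 1.98 ± 0.38, edgeR adjusted p = 0.000937). The membrane glycoprotein LAMP2 had medians of 71.1 CPM in blastocysts and 20.6 CPM in morulas, and rose by 1.79 ± 0.58 on the log2 scale (edgeR adjusted p = 0.0297). The cathepsins CTSC and CTSD rose as well, and the galactosidase GLA fell, with a log2 fold change of -1.94 (edgeR adjusted p = 0.0496), and -1.38 without the deep morulas (adjusted p = 0.274). In voom 16 members rose and none fell.

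Transport genes were called in both directions. Of 30 tested amino acid and glucose transporters, 4 rose and 4 fell. The share that rose lay above the 4.71% over all genes, and the share that fell was near the 9.95% over all genes. The glucose transporter SLC2A1 (GLUT1) had 75.4, 772 and 1381 CPM in blastocysts, against 0.488, 16.1 and 333 CPM in morulas, a log2 fold change of 3.82 ± 0.83 (SE; edgeR adjusted p = 0.00327). The morula at 333 CPM was 022916_01, and 13 of 14 blastocysts exceeded it. The other glucose transporter that changed, SLC2A3 (GLUT3), fell, with 106, 269 and 390 CPM in blastocysts, against 299, 485 and 610 CPM in morulas (log2 fold change -0.82 ± 0.25, edgeR adjusted p = 0.0193, and -0.76 with an adjusted p of 0.0790 without the deep morulas). The glutamate carrier SLC1A3, the neutral amino acid carrier SLC38A2 and the light-chain exchanger SLC7A8 rose in all 6 fits. The lactate and pyruvate carrier SLC16A1 fell in all 6, with 37.7, 79.3 and 175 CPM in blastocysts, against 60.4, 229 and 521 CPM in morulas (log2 fold change -1.41 ± 0.29, edgeR adjusted p = 0.00156).

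Of 26 ion and water transport genes, 4 rose and 5 fell, larger shares than the 4.71% and 9.95% over all genes. ATP12A, the non-gastric proton and potassium pump, had 0, 40.2 and 313 CPM in blastocysts, against 0, 0.389 and 13.1 CPM in morulas. Its log2 fold change was 5.50 ± 0.89 (SE; edgeR adjusted p = 0.000137), and 12 of 14 blastocysts exceeded every morula. ATP1B1, the beta subunit of the sodium pump that drives cavity filling, had 66.3, 169 and 269 CPM in blastocysts, against 3.31, 37.7 and 111 CPM in morulas (log2 fold change 1.64 ± 0.50, edgeR adjusted p = 0.0216, and again 1.64 with an adjusted p of 0.0793 without the deep morulas). The chloride channel proteins CLIC1 and CLIC3 rose, CLIC3 with 58 counts in all over the blastocysts and 0 over the morulas, at least 23.8-fold higher against 3 counts over the group. The water channel AQP3 fell, with 6.21, 59.0 and 537 CPM in blastocysts, against 65.7, 239 and 1095 CPM in morulas (log2 fold change -2.05 ± 0.53, edgeR adjusted p = 0.00897, and -1.49 with an adjusted p of 0.0997 without the deep morulas). The blastocyst at 537 CPM of AQP3 was 111715_05. The potassium channel KCNK5 and the bicarbonate cotransporter SLC4A4 fell in all 6 fits, with medians of 2.91 and 0.182 CPM in blastocysts, against 31.0 and 9.01 CPM in morulas. The others that fell were the carbonic anhydrase CA2 and the sodium channel subunit SCNN1G.

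Junction and Hippo genes are set beside the shares over all genes, 4.71% higher and 9.95% lower. The share of junction genes that rose was above the first, on 3 genes, and both Hippo shares were near those of all genes. Of 35 tested junction and polarity genes, 3 rose (DSC2, EZR and PKP3) and 2 were called lower (CLDN1 and ESRP1). CLDN1 had 18 counts in a single morula, 020816_03, a single count in a single blastocyst and 0 in the other libraries, and its sign turned in DESeq2 and voom. The desmosomal cadherin DSC2 rose in all 6 fits, with 43.4, 174 and 359 CPM in blastocysts, against 2.19, 29.6 and 98.4 CPM in morulas (log2 fold change 2.20 ± 0.50, edgeR adjusted p = 0.00324). CDH1, the E-cadherin of compaction, had 245, 657 and 860 CPM in blastocysts, against 72.3, 301 and 586 CPM in morulas. It did not pass with all libraries (log2 fold change 1.10 ± 0.43, edgeR adjusted p = 0.0757) and passed without the 2 libraries (adjusted p = 0.0311). Of 23 Hippo pathway genes, 1 rose and 2 fell. The 2 were AMOT, which holds YAP1 in the cytoplasm, and the kinase LATS1, and neither was called without the deep morulas (log2 fold changes -1.39 and -1.42, against -1.81 and -1.74 with them, edgeR adjusted p = 0.174 and 0.0862). YAP1 had medians of 72.5 CPM in blastocysts and 52.9 CPM in morulas and did not pass (edgeR adjusted p = 0.872). MYO6, a motor of endocytic vesicles, was among the genes with the smallest p that rose, with 34.3, 115 and 220 CPM in blastocysts, against 3.18, 17.5 and 37.1 CPM in morulas (log2 fold change 2.65 ± 0.46, edgeR adjusted p = 0.000305).

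Signalling genes rose in 8 of 45 tested members and fell in 5. The share that rose lay above the 4.71% over all genes, and the share that fell was near the 9.95% over all genes. The BMP receptors BMPR1A and BMPR2 rose, with medians of 13.9 and 49.1 CPM in blastocysts, against 2.16 and 6.06 CPM in morulas, and log2 fold changes of 2.20 ± 0.64 and 2.61 ± 0.71 (edgeR adjusted p = 0.0173 and 0.0107). ID1, a helix-loop-helix inhibitor that BMP signals induce in many cells, fell by 6.12 ± 1.24 on the log2 scale (edgeR adjusted p = 0.00143). It had 0, 0.0803 and 1.91 CPM in blastocysts, against 0, 3.17 and 275 CPM in morulas, and without the deep morulas it fell by 4.55. SEMA6D, a semaphorin, and F2RL2, a thrombin receptor, rose in all 6 fits, with medians of 49.1 and 7.12 CPM in blastocysts, against 0.389 and 0 CPM in morulas. Among 13 IGF, insulin and relaxin genes IGF1 and IGF2R rose and none fell, a share that rose above the 4.71% over all genes, on 2 genes. Without the deep morulas edgeR called none, while the median log2 fold change was 0.73, against 0.55 with them, and 6 members, against 4, had an unadjusted p under 0.05. IGF2R, the receptor that clears IGF2, had 45.7, 226 and 370 CPM in blastocysts, against 0.778, 55.5 and 146 CPM in morulas (log2 fold change 1.85 ± 0.54, edgeR adjusted p = 0.0180), and 1.48 without the deep morulas.

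DNA methylation genes rose in 5 of 22 tested members and 1 fell, and TET2, DNMT3B and SMUG1 rose in all 6 fits. The share that rose lay above the 4.71% over all genes, and the share that fell was below the 9.95% over all genes. DNMT3B, a de novo methyltransferase, had 119, 984 and 1373 CPM in blastocysts, against 13.1, 145 and 570 CPM in morulas (log2 fold change 2.54 ± 0.53, edgeR adjusted p = 0.00208). Blastocyst 111715_05 and morula 022916_01 held the extremes, and without them the lowest blastocyst had 676 CPM and the highest morula 376 CPM. DNMT3A, the other de novo enzyme, had medians of 306 CPM in blastocysts and 65.9 CPM in morulas and rose by 1.71 ± 0.45 on the log2 scale (edgeR adjusted p = 0.00942), and 1.66 without the deep morulas (adjusted p = 0.0539). DNMT1, which copies methylation after replication, fell, with 30.7, 62.9 and 663 CPM in blastocysts, against 58.3, 247 and 2122 CPM in morulas (log2 fold change -2.47 ± 0.67, edgeR adjusted p = 0.0138). Without the deep morulas its log2 fold change was -1.03 (adjusted p = 0.359). TET1 and TET3 did not pass, with medians of 608 and 32.8 CPM in blastocysts, against 467 and 40.2 CPM in morulas. MBD4, a thymine glycosylase, was called higher from a single library, 111715_05, with 100646 CPM, and fell by 1.36 on the log2 scale without the 2 libraries (edgeR adjusted p = 0.0251). Of 52 histone and chromatin modifiers 2 rose and 3 fell, the first near the share over all genes and the second below it. In all 6 fits the methyltransferase KMT2A rose and the acetyltransferase KAT2B fell. KAT2B had 0.848, 4.41 and 22.9 CPM in blastocysts, against 7.79, 69.1 and 171 CPM in morulas (log2 fold change -3.83 ± 0.59, edgeR adjusted p = 7.03e-05).

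**Figure D4:**
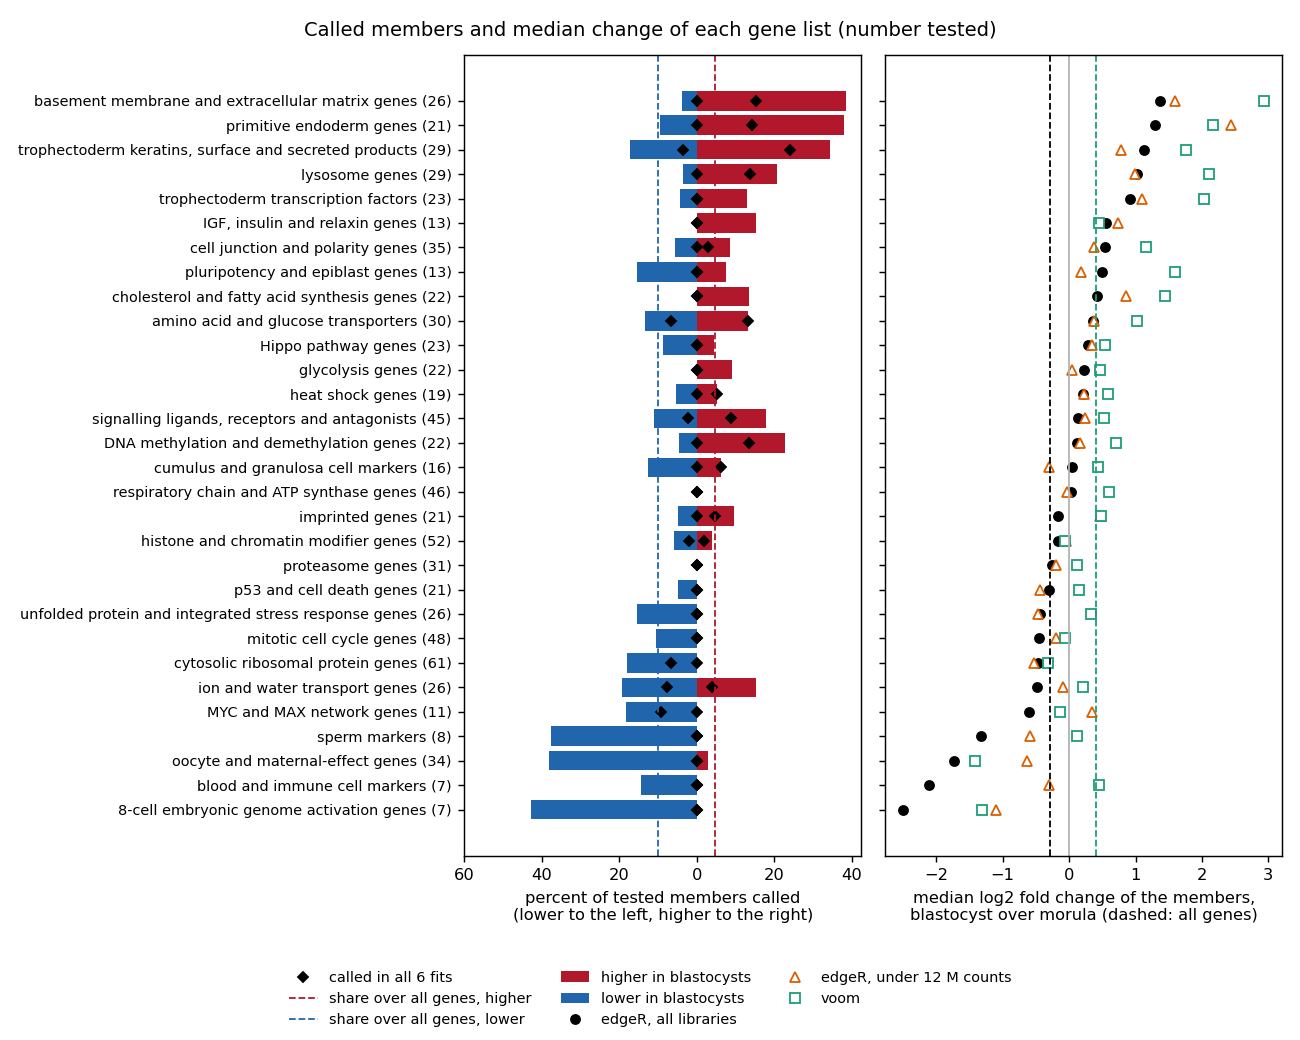
Left, percent of tested members of each gene list called higher (red, to the right) or lower (blue, to the left) in blastocysts by edgeR, with diamonds for calls in all 6 fits and dashed lines at 4.71% and 9.95%, the shares over all genes. Right, median log2 fold change of each list in 3 fits, with dashed lines at the median of all genes in edgeR (-0.29) and voom (0.40).

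The genes with the smallest p among those that fell had varied roles. TRIP12, a ubiquitin ligase, had 166, 310 and 715 CPM in blastocysts, against 360, 1334 and 2371 CPM in morulas (log2 fold change -1.90 ± 0.26, edgeR adjusted p = 1.10e-05). TUBA3E, an alpha tubulin with close paralogs that may share its reads, had 0.325, 1.37 and 7.56 CPM in blastocysts, against 0.244, 38.5 and 97.1 CPM in morulas (log2 fold change -4.33 ± 0.64, edgeR adjusted p = 3.28e-05). MAEL, a factor of the piRNA pathway that silences transposons in germ cells, had 0.903, 3.73 and 77.7 CPM in blastocysts, against 16.0, 68.7 and 479 CPM in morulas (log2 fold change -3.92 ± 0.62, edgeR adjusted p = 0.000127). Its highest blastocyst was 111715_05 and its lowest morula 022916_01. PDCL3, CFAP97, KIAA1191, NOCT and LUZP2 also fell in all 6 fits, by 2.47 to 5.61 on the log2 scale.

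Ribosomal protein genes fell in 11 of 61 tested members and none rose, beside 9.95% and 4.71% of all genes. Their median log2 fold change was -0.46, against -0.29 over all genes, 7 fell without the deep morulas, 5 with DESeq2 size factors and 4 in all 6 fits. In SoLo, on some of the same embryos, edgeR and DESeq2 called none of 60, with a median log2 fold change of 0.03 and 4 members at an unadjusted p under 0.05 in edgeR. Their summed level was 3888, 5437 and 8578 CPM in blastocysts, against 5734, 7819 and 10652 CPM in morulas. RPS19, a small-subunit protein, had 37.7, 53.6 and 89.6 CPM in blastocysts, against 91.2, 138 and 193 CPM in morulas, with no overlap (log2 fold change -1.23 ± 0.27, edgeR adjusted p = 0.00232). RPS24 fell by 1.19 ± 0.27 (edgeR adjusted p = 0.00323), and all blastocysts but 1 lay below every morula. RSL1D1, a nucleolar factor of ribosome assembly, had 129, 237 and 329 CPM in blastocysts, against 269, 692 and 1158 CPM in morulas (log2 fold change -1.52 ± 0.22, edgeR adjusted p = 2.66e-05). Copies of ribosomal protein genes can share reads, so single members are uncertain.

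Calls of oocyte and genome-activation genes were lost without the deep morulas, where calls over all genes also dropped from 2283 to 733. Among 34 tested genes of the oocyte and of maternal effect, 13 fell and NLRP2 rose (median log2 fold change -1.74). Of 7 genes of embryonic genome activation 3 fell. Both shares that fell lay above the 9.95% over all genes. Without the 3 deep morulas edgeR called no member of either list, beside 1.88% of all genes higher and 2.96% lower. For lists this short, an absence of calls lies near these shares. Their medians there were -0.64 and -1.10, with 7 and 2 members at an unadjusted p under 0.05. Without the 2 libraries that stood apart 19 and 4 fell, beside 11.3% of all genes. The SoLo kit, described below, called BTG4 and NLRP13 lower, by 2.84 and 2.40 on the log2 scale (edgeR adjusted p = 0.0418 and 0.0321). BTG4, which directs decay of maternal mRNA, had 0, 1.56 and 20.6 CPM in blastocysts, against 0.156, 9.77 and 328 CPM in morulas (log2 fold change -4.19 ± 0.98, edgeR adjusted p = 0.00474). DAZL, an RNA-binding protein of germ cells, had 1.45, 3.32 and 25.1 CPM in blastocysts, against 0.313, 10.7 and 482 CPM in morulas (log2 fold change -3.85 ± 0.83, edgeR adjusted p = 0.00267). The highest morula was the deep library 022916_03 for both. The member that rose, NLRP2, had 521, 1047 and 1737 CPM in blastocysts, against 95.3, 476 and 997 CPM in morulas (log2 fold change 0.98 ± 0.28, edgeR adjusted p = 0.0163). The summed level of the oocyte list had medians of 3375 CPM in blastocysts and 2403 CPM in morulas, the opposite direction to most members. ZSCAN4, an activation gene, had medians of 0.789 CPM in blastocysts and 7.14 CPM in morulas and did not pass (edgeR adjusted p = 0.0667).

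**Figure D5:**
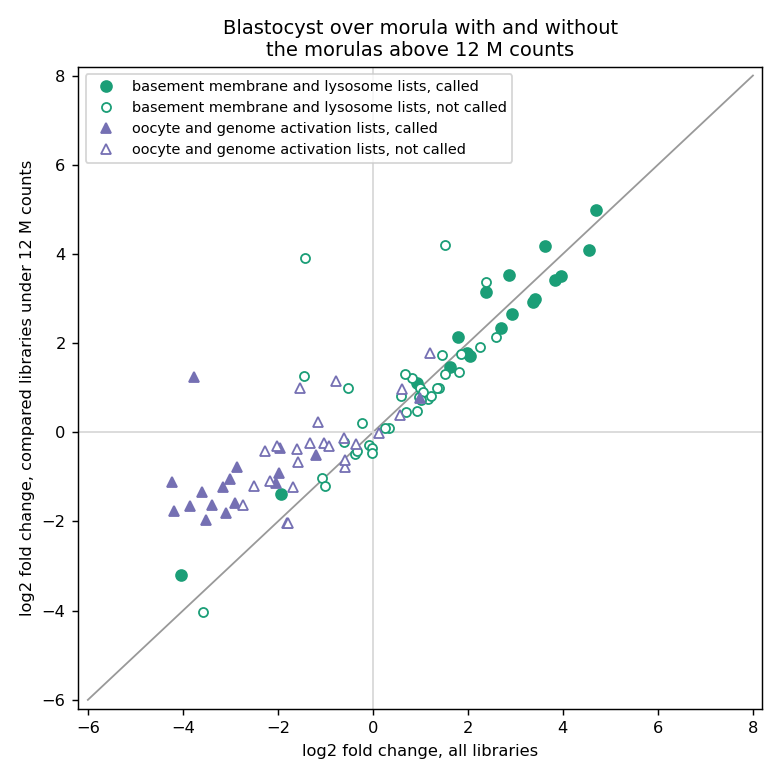
Log2 fold change, blastocyst over morula, of list members with all libraries (x axis) and with the compared libraries under 12 M counts (y axis), by edgeR; filled symbols were called with all libraries. Called matrix and lysosome members (green) lie near the line of equal values, while called oocyte and genome-activation members that fell (violet) lie above it, nearer to zero or past it.

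Several lists held no calls or a small number, beside shares over all genes of 4.71% higher and 9.95% lower. Higher cholesterol and glycolysis genes and lower stress-response genes made up larger shares than these, on 2 to 4 genes each. Pluripotency genes did so in both directions, on 1 and 2 genes. None of 46 respiratory chain genes and none of 31 proteasome genes was called by edgeR or DESeq2, while voom called 4 and 1. In edgeR 2 members of each list had an unadjusted p under 0.05, and 4486 of all tested genes did. Of 13 pluripotency genes TFCP2L1 rose and SALL4 and KLF17 fell, and POU5F1 and NANOG did not pass, with medians of 43.2 and 20.1 CPM in blastocysts, against 87.9 and 10.5 CPM in morulas. Glycolysis genes rose in 2 of 22 members, PFKFB4 and PKLR, and PKLR had counts in 2 blastocysts only. Cholesterol and fatty acid synthesis genes rose in 3 of 22, SREBF2 and SQLE among them, and none fell. Without the deep morulas edgeR called none, while the median log2 fold change was 0.86, against 0.43 with them, and 6 members had an unadjusted p under 0.05 both times. Among 48 mitotic genes 5 were called lower, a share near that of all genes, with none called without the deep morulas (7 at an unadjusted p under 0.05) and none in all 6 fits. DESeq2 called 1 mitotic gene lower and 1 higher, and voom 1 lower and 2 higher. Stress-response genes were called lower in 4 of 26, in 3 without the deep morulas and in none in all 6 fits, and voom called 2 higher. Their summed level had medians of 5346 CPM in blastocysts and 3814 CPM in morulas, with overlap, the opposite direction to the edgeR calls. Among markers of other cells, the summed level of 19 cumulus and granulosa genes was 33.1, 66.4 and 147 CPM in blastocysts, against 23.1, 115 and 218 CPM in morulas. Sperm marker sums were 12.6 to 273 CPM in blastocysts and 2.53 to 175 CPM in morulas, and blood marker sums 6.19 to 38.6 CPM and 1.46 to 140 CPM. The cumulus marker LUM, the sperm marker SMCP and the blood marker CD8A were at 0 in all 25 libraries. Each was the only matched member of its list at 0 in all of them. Of the tested markers 1 of 16, 0 of 8 and 0 of 7 rose in these lists and 2, 3 and 1 fell. Their part in the results was not tested.

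The SoLo kit had been used on some of the same embryos, 6 blastocysts and 3 morulas, so its values are no independent embryos. The names of 2 of these blastocyst columns were cut short and gave the group only. It called 16 of 14196 genes higher in blastocysts (0.113%) and 146 lower (1.03%) by edgeR. MAX had 136, 136, 152, 160, 191 and 250 CPM in SoLo blastocysts, against 247, 498 and 614 CPM in SoLo morulas (log2 fold change -1.41 ± 0.25, edgeR adjusted p = 0.0204). PSAP had 1005, 1146, 1466, 1702, 1845 and 1881 CPM in SoLo blastocysts, against 167, 192 and 439 CPM in SoLo morulas (log2 fold change 2.50 ± 0.32, edgeR adjusted p = 0.00211). The groups did not overlap for PSAP, while the lowest MAX value of the morulas lay just below the highest of the blastocysts.

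Morula 022916_01 stood apart in both kits. ENPEP had 91.6, 125, 270, 339, 417 and 558 CPM in SoLo blastocysts, against 122 CPM in morula 022916_01 and 0.275 and 0.293 CPM in the other 2 morulas (log2 fold change 2.88 ± 1.70, edgeR adjusted p = 0.440). TET2 lay between 714 and 1939 CPM in SoLo blastocysts, against 1133 CPM in 022916_01 and 99.8 and 121 CPM in the other 2. GATA4 lay between 0.128 and 45.7 CPM in SoLo blastocysts, against 29.3 CPM in 022916_01 and 0 and 0.0917 CPM in the others. None of these 3 genes passed in SoLo, and without 022916_01 edgeR called 1477 genes there in place of 162.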

How the data were processed

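Values are raw read counts for each Ensembl gene, as the authors deposited them. HISAT2 and DESeq2 are named in the submitters' processing notes, without versions. No source used here gives the read counter, build, annotation or strand use, so overlapping, antisense and near-identical genes may share counts. Of 26309 identifiers, 15078 had a symbol. Of 52 columns 47 matched a title, 2 SoLo columns matched a group only, and 3 matched none and were not used.

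The 36 SPIA libraries of 4 groups were fitted together in R 4.3.3 with edgeR 4.0.16 (filterByExpr, TMM, robust quasi-likelihood), with the contrast of expanded blastocyst minus morula. CPM use TMM-scaled totals. Alternatives were DESeq2 1.42.0, limma 3.58.1 voom, other scalings and filters, and left-out libraries. The fits were tested on simulated data. No 2 replicates matched within sampling noise.

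Members and lists were chosen with earlier results of these data known. Genes were named if they marked the comparison, were among the 12 smallest p-values per direction above a mean of 10 CPM, were among up to 4 called members per list and direction, or stood in a fixed set of stage genes. The blastocyst split and the genes without overlap were chosen after their values were seen, and the 12 M limit with the depths known. Some genes are not reported here.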

Additional observations from a re-analysis of the deposited data

Results flagged for a closer look

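In the SoLo kit, MAEL had 2.18, 2.53, 2.57, 2.81, 2.94 and 6.27 CPM in the 6 expanded blastocysts, against 15.1, 46.9 and 268 CPM in the 3 morulas. The blastocyst at 6.27 CPM, 112415_03, stood far from the others: on the log2(CPM + 1) scale its gap to the nearest was 0.742 of the whole range of the group. The gene was flagged by a rule for outliers, so such a gap can arise by chance, at a rate that was not tested.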

How the results depend on the processing

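With all 25 libraries 2283 genes were called, 733 higher and 1550 lower. The count moved to 1297 (410 higher, 887 lower) with the compared groups fitted alone, 1366 (393 and 973) with 1 CPM required in 9 libraries, 3792 (1523 higher) with no filter and 733 (285 and 448) without the deep morulas. By voom 1449 were higher and 383 lower, and with the title code as a random block 1739 and 496, so the share of higher calls was 79.1% and 77.8% in place of 32.1%, 45.5% in DESeq2 and 44.9% without code 022916. Leaving out code 022916 gave 1473 (812 lower), code 111215 gave 1385 (460 and 925), code 111715 gave 1064 (377 and 687) and code 112415 gave 1312 (823 lower). Fitted alone without the 2 libraries, an alternative added after seeing the data, 1614 genes were called. In SoLo, DESeq2 called 801 and leaving out a library gave 5 to 1477.

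Of 122 named called genes, 118 of 121 tested kept their call without the 2 libraries, 60 without the deep morulas, 77 in voom and 105 in DESeq2. Signs turned for MBD4 (-1.10 in DESeq2, -1.02 and -0.94 in voom, -1.27 without 111715_05 against 6.18 without 022916_01, -1.36 without the 2 libraries or code 111715, -1.37 fitted alone without the 2), CLDN1 (1.02 in DESeq2, 0.19 and 0.22 in voom) and LEUTX (0.14 without code 022916, 1.23 without the deep morulas). For MBD4 the library 111715_05 carries the change. For the others the cause was not tested. No paired analysis was possible because no title code is shared between expanded blastocysts and morulas within a kit, and the numbers after the code recur under several codes of a group and so name no pair. Depth limits low genes most in 111715_05.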

Other observations

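Some gene families outside the lists, chosen after the values were seen and given without a test, are given by their counts. Of 10 tested annexins, calcium-dependent membrane-binding proteins, 4 rose and none fell, beside 4.71% and 9.95% of all genes. ANXA2 had 427, 1114 and 2070 CPM in blastocysts, against 26.5, 277 and 1172 CPM in morulas (log2 fold change 1.83 ± 0.43, edgeR adjusted p = 0.00445). Among 41 RAB GTPases, which direct vesicle traffic, RAB17 and RAB25 rose and RAB10 fell, and the median log2 fold change was -0.40. The share that rose was near the 4.71% over all genes, and the share that fell was below the 9.95% over all genes. RAB25, an epithelial member, had 2.44, 88.5 and 483 CPM in blastocysts, against 0.0823, 2.74 and 24.7 CPM in morulas, and RAB17 had a median of 3.06 CPM in blastocysts and was at 0 in every morula.

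Of 45 tested genes of nucleolar ribosome assembly and of the RNA exosome, 12 fell and none rose, beside 9.95% and 4.71% of all genes. Their median log2 fold change was -0.86, and 7 fell in all 6 fits, beside 1.07% of all genes. NOP2, an rRNA methyltransferase, had 20.1, 31.4 and 68.5 CPM in blastocysts, against 35.1, 116 and 233 CPM in morulas (log2 fold change -1.85 ± 0.38, edgeR adjusted p = 0.00143). BRIX1, an assembly factor of the large subunit, had 9.15, 32.1 and 60.4 CPM in blastocysts, against 32.9, 84.6 and 153 CPM in morulas (log2 fold change -1.50 ± 0.31, edgeR adjusted p = 0.00168). Of the 4 ID genes, ID4 fell beside ID1, with medians of 0.0824 CPM in blastocysts and 5.45 CPM in morulas (log2 fold change -4.48 ± 1.08, edgeR adjusted p = 0.00498). MOV10L1, a helicase of the piRNA pathway, fell beside MAEL, with medians of 0.251 CPM in blastocysts and 4.71 CPM in morulas (log2 fold change -5.95 ± 0.97, edgeR adjusted p = 0.000146).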
